A study of Mus musculus with 6 samples.

Results

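The cytochrome P450 genes of families 1, 2 and 3 were followed in mouse liver, leaving out the Cyp2a and Cyp2b subfamilies. Members were all protein-coding rows of the deposited table whose gene name began with Cyp1, Cyp2 or Cyp3, a subfamily letter and a number, and the Cyp2a and Cyp2b genes were then taken out. This gave 50 of 41838 genes, and no measured value entered the choice. They comprised 15 Cyp2c, 9 Cyp3a, 8 Cyp2d, 7 Cyp2j and 2 Cyp1a genes, and Cyp1b1, Cyp2e1, Cyp2f2, Cyp2g1, Cyp2r1, Cyp2s1, Cyp2t4, Cyp2u1 and Cyp2w1.

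The livers came from 3 Alkbh5flox/flox mice, with the floxed gene, used as controls, and 3 Alkbh5-HKO mice, which the sample titles call Alkbh5-CKO. ALKBH5 is a demethylase that removes the methyl group of N6-methyladenosine from RNA. The series text puts the mice at 9 weeks of age, and the extraction protocol puts both groups on normal chow for 9 weeks. What HKO and CKO stand for, the Cre driver, the deleted part of the gene, sex and feeding state were not given in the sources used here. Libraries are called flox 1 to 3 and HKO 1 to 3 below, and p-values measure the spread between animals that the labels call independent biological replicates.

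Cytochrome P450 enzymes are heme proteins that insert an oxygen atom into a substrate, using electrons passed on by the reductase POR and, for some reactions, by cytochrome b5. In hepatocytes the enzymes of families 1 to 3 sit in the endoplasmic reticulum and oxidise drugs, dietary chemicals, steroids, bile acids and unsaturated fatty acids. Their genes are known to be controlled by the aryl hydrocarbon receptor AHR (Cyp1 genes), by the receptors CAR and PXR (many Cyp2c and Cyp3a genes) and by liver factors such as HNF4A. Several Cyp2c, Cyp2d and Cyp3a genes differ between the livers of male and female mice.

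Stretches before the transcription start are shown for some of the members whose levels the results turn on, together with close relatives in the same gene cluster, chosen after their values were seen. They are the 150 bases upstream of the start given by RefSeq on GRCm38.p6, read 5′ to 3′ in the direction of transcription. A promoter entry was matched for 43 of the 50 members by gene identifier. Cyp2g1 and Cyp2c54 were among the members without an entry, so no stretch could be shown for them. Capitals mark exact matches, on either strand, to a TATA box (TATAAA), the core of an HNF4 site (CAAAGT) and the core of an AHR site (GCGTG), so that TTTATA and ACTTTG are the first and the second of these read on the other strand.
Cyp2c40 (chr19:39812815-39812964, minus strand): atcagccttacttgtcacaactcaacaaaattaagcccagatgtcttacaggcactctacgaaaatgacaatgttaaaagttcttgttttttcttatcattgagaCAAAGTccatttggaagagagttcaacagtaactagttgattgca
Cyp2c69 (chr19:39886770-39886919, minus strand): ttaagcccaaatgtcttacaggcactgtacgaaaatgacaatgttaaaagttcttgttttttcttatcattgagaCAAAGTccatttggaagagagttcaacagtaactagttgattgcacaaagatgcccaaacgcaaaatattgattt
Cyp3a25 (chr5:146009619-146009768, minus strand): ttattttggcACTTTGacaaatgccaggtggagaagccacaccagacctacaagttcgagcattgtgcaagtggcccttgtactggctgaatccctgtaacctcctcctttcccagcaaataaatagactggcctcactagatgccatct
Cyp3a59 (chr5:146079108-146079257, plus strand): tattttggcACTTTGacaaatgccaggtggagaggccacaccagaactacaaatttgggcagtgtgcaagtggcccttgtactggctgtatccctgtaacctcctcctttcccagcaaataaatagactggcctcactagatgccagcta
Cyp2d9 (chr15:82452227-82452376, plus strand): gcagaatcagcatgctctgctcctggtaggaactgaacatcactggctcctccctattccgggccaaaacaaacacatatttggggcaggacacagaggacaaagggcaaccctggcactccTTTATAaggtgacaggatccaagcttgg
Cyp2d10 (chr15:82407195-82407344, minus strand): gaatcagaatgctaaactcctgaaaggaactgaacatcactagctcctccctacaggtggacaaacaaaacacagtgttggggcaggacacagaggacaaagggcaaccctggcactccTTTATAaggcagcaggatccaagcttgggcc
Cyp2d40 (chr15:82764123-82764272, minus strand): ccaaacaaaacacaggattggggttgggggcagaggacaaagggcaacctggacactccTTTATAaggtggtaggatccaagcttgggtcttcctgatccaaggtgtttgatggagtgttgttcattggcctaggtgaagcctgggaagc
Cyp1a2 (chr9:57683656-57683805, minus strand): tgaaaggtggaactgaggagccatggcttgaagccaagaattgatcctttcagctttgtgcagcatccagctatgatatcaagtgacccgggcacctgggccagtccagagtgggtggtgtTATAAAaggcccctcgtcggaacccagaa
Cyp1a1 (chr9:57697463-57697612, plus strand): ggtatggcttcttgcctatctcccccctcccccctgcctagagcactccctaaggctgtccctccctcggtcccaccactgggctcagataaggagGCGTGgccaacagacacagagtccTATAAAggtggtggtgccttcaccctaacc

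Windows of 250 bases upstream were aligned only within a subfamily, so a grouping of the subfamilies was not tested. Identity over the aligned bases ran down to 50.2%, for Cyp2j6 and Cyp2j12. It was 54.4% for Cyp1a1 and Cyp1a2 and 54.6% for Cyp2d26 and Cyp2d40. In Cyp2c40 and Cyp2c69 the windows were 98.6% identical over 220 aligned bases, and the match to CAAAGT lay at -45 and -75 because their starts are placed differently. Cyp3a25 and Cyp3a59 were 95.6% identical over 249 aligned bases, and Cyp2d9 and Cyp2d10 85.0% over 246. Over the full 250 bases upstream and both strands, CAAAGT was found in 12 of 13 Cyp2c and 8 of 9 Cyp3a promoters, the exceptions being Cyp2c55 and Cyp3a13. It was found in 1 of 5 Cyp2d promoters, that of Cyp2d26. In all, 23 of 43 members (53.5%) held it, against 14.1% of the 27025 genes with a promoter entry. TATAAA was found in 21 of 43 members (48.8%) and 14.3% of all genes, including 5 of 5 Cyp2d promoters. In Cyp2d9 and Cyp2d10 it lay at -28 and -31, and in Cyp2d40 at -91 from the RefSeq start. GCGTG was found in 7 of 43 members (16.3%) and 30.9% of all genes. Cyp1a1 held it at -54, and Cyp1a2 did not hold it in this window. Other motifs were searched in the same windows and are not marked in capitals above. The nuclear receptor motif AGGTCA was found in 11 of 43 members (25.6%) and 15.8% of all genes. Its variant AGTTCA was found in 8 members (18.6%) and 13.4% of all genes. The HNF1 motif GTTAAT was found in 4 members (9.3%) and 7.49% of all genes. The STAT5 site TTCNNNGAA, where N is any base, was found in 2 members (4.65%) and 8.13% of all genes. None of the 3 motifs marked in capitals is contained in another. A match is a description of the letters, and members of a cluster share ancestry and so are not independent.

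Recovered depth was 14907384 to 17034754 reads per library, with 18683 to 19525 genes above 0. Alkbh5 was at 17.8, 16.8 and 14.8 FPKM (fragments counted for a gene, divided by its length in kilobases and by the library size) in flox 1 to 3 and at 0.508, 0.444 and 0.476 in HKO 1 to 3. Its log2 difference was -3.56 (SE 0.12, limma, BH-adjusted p = 8.14e-05), as the labels say. On the first principal component of all tested genes, with 44% of the variance, HKO 1 lay farthest from the flox libraries, at 38.6 beside 15.7 and 4.52 for HKO 2 and 3. The hepatocyte markers were high in every library, with a summed level of 46300 to 55710 FPKM in flox and 51720 to 54290 in HKO. Transcripts of the Y chromosome were present in all 6 libraries. Of 6 erythroid markers, 5 were tested and all 5 lay lower in each HKO library than in each flox library, as 12.6% of all genes did, with summed levels of 352.2 to 673.9 and 104.8 to 209 FPKM, and 1 of them passed (Hbb-bt, limma, BH-adjusted p = 0.0373). The sixth, Slc4a1, was at 0 in all 3 HKO libraries. Of 6 T and NK cell markers, 2 were tested and both were separated upward, as 12.8% of all genes were, with sums of 1.38 to 2.30 and 3.66 to 5.82 FPKM, and Trac was at 0 in flox 1 and HKO 3 and Cd3d in flox 2. The part of these cells in the P450 levels was not tested. In bulk liver, fewer cells of a type and less RNA per cell cannot be told apart.

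P450 levels differed widely between members. Mean FPKM over the 6 libraries was 100 or more for 18 members, from 10 to under 100 for 5, from 1 to under 10 for 8, above 0 but under 1 for 12, and 0 in every library for 7. The 7 listed at 0 were Cyp2c65, Cyp2c66, Cyp2j11, Cyp2j12, Cyp2j13, Cyp2w1 and Cyp3a41a. Cyp2e1 was the most abundant at 3975 FPKM, followed by Cyp2d9 at 1054, Cyp3a11 at 942, Cyp2c29 at 637, Cyp2f2 at 626 and Cyp1a2 at 611. Summed over the members the level was 11923, 12153 and 10389 FPKM in flox 1 to 3 and 10859, 10192 and 10247 in HKO 1 to 3. The groups overlapped in this sum, and the members took 1.95% to 2.12% of the reads in every library. The 31 members with a mean of at least 1 FPKM were tested.

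**Figure D1:**
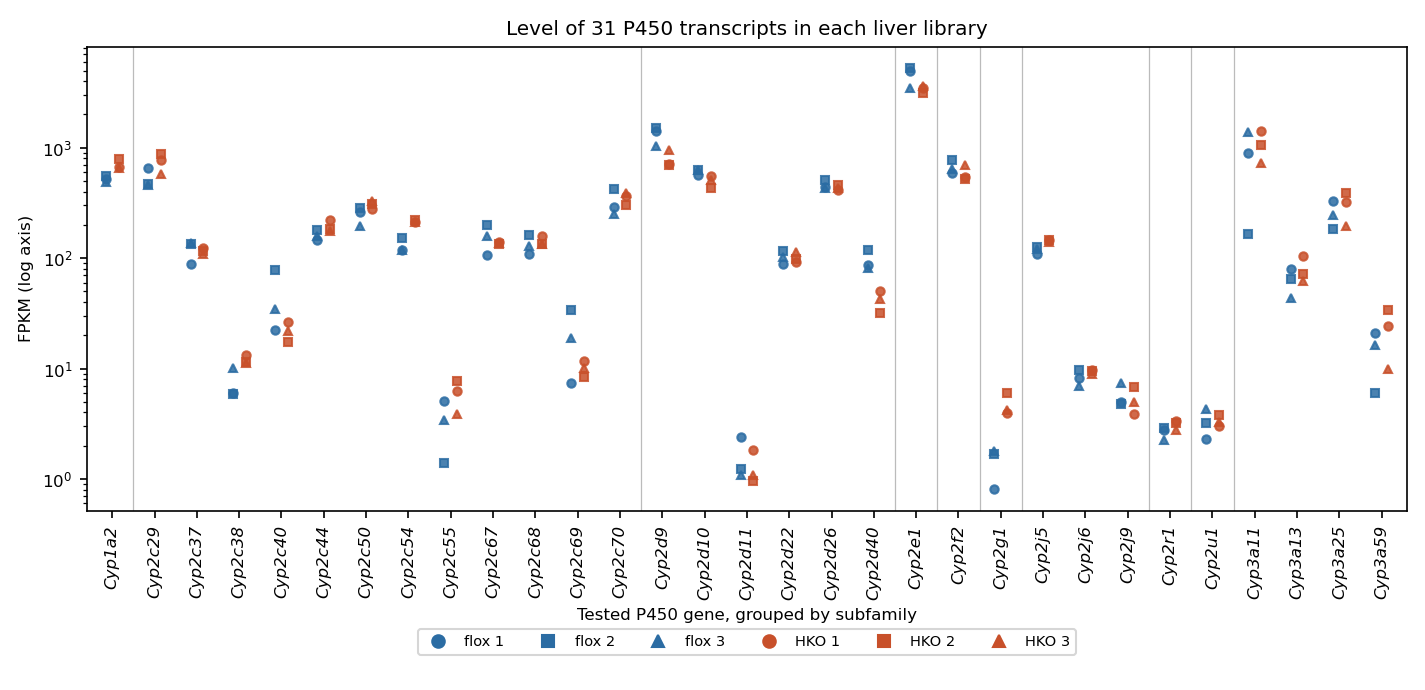
FPKM on a log axis of the 31 tested P450 genes in each of 6 liver libraries (blue, flox; orange, HKO; circle, square and triangle for libraries 1, 2 and 3). Cyp2e1 is highest in all 6 libraries, from 3135 to 5260, and Cyp3a11 in flox 2, at 165, lies apart from the other libraries of its gene.

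No P450 gene passed the test over all genes in HKO against flox livers. Of the 31 tested, 18 were higher and 13 lower, and limma with Benjamini-Hochberg (BH) adjustment at 0.05 called 0, where it called 0.488% of the 10453 genes tested. At an unadjusted p under 0.05, 4 members (12.9%) were higher, beside 8.57% of all genes, and 2 (6.45%) were lower, beside 8.44%. The 4 were Cyp1a2, Cyp2c38, Cyp2c54 and Cyp2g1, and the 2 were Cyp2d9 and Cyp2d40. Voom on the recovered reads called 0 members as well, and at an unadjusted p under 0.05 it had 5 higher and 2 lower. Every HKO library lay above every flox library for 5 members (16.1%, beside 12.8% of all genes), the 4 named and Cyp2j5. Every HKO library lay below every flox library for 3 members (9.68%, beside 12.6% of all genes), namely Cyp2d9, Cyp2d10 and Cyp2d40. In this fit the shares lie near those of all genes. The members at an unadjusted p under 0.05 were 8 higher and 2 lower of 34 with TPM, 7 and 2 with scaling to the sum of the reads, 7 and 3 of 43 with no minimum level, 6 and 4 without flox 1, and 6 and 2 without HKO 3. The median log2 difference of the tested members was 0.17 and that of all genes -0.02, and the median of the absolute difference was 0.30 and 0.20. Without flox 2 the members' median was 0.09, and without flox 3 it was also 0.09.

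**Figure D2:**
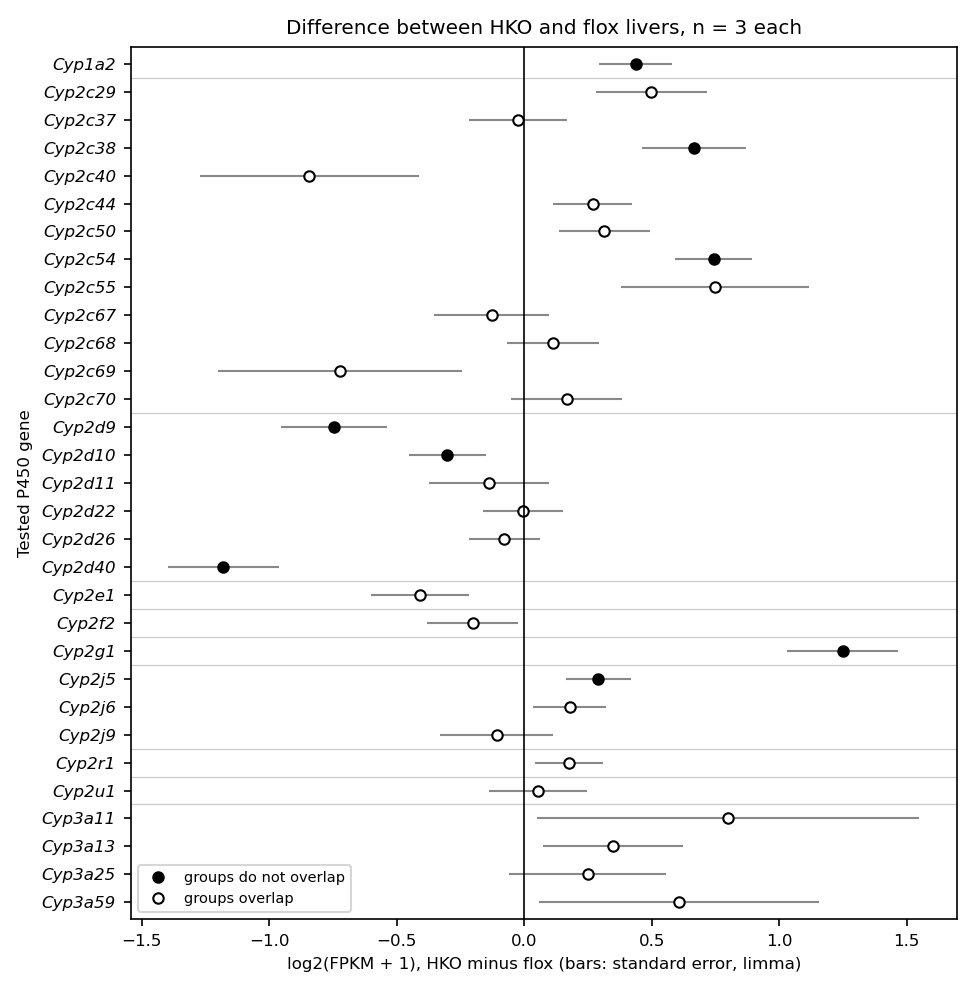
Difference in log2(FPKM + 1), HKO minus flox, of the 31 tested P450 genes, with bars for the standard error from limma; filled points are genes whose 3 HKO and 3 flox libraries do not overlap. The filled points lie at 0.29 or more (5 genes) and at -0.30 or less (3 genes, all Cyp2d), and the widest bar is that of Cyp3a11.

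Cyp2e1, which oxidises ethanol, acetaminophen and other small molecules around the central vein, was the largest single P450 transcript. It was at 4934, 5260.2 and 3487 FPKM in flox 1 to 3 and at 3441, 3135 and 3589.8 in HKO 1 to 3 (gene 13106, chromosome 7, 140763832 to 140774981, plus strand, GRCm38.p6). The 3 HKO libraries lay close together, flox 1 and flox 2 lay above them, and flox 3 fell below HKO 3. The group means were 4560.5 ± 944 in flox and 3389 ± 232 in HKO (SD, n = 3) FPKM, and the difference did not pass (log2 -0.41, SE 0.19, limma, BH-adjusted p = 0.334). Without flox 3 the log2 difference was -0.59 and without flox 2 it was -0.29. Its share of the members' summed FPKM was 41.4, 43.3 and 33.6% in flox and 31.7, 30.8 and 35.03% in HKO, again with flox 3 inside the HKO range.

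The Cyp1a pair, neighbours on chromosome 9 that are transcribed away from each other and are the best known AHR targets, both lay higher in HKO livers. Cyp1a2, which oxidises caffeine and aromatic amines and is made in uninduced liver, was at 516, 551 and 488 FPKM in flox 1 to 3 and 672, 783 and 655 in HKO 1 to 3 (gene 13077, chromosome 9, 57676937 to 57683655, minus strand, GRCm38.p6). All 3 HKO libraries exceeded all 3 flox libraries, with means of 518 ± 31.8 in flox and 703 ± 69.2 in HKO (SD, n = 3) FPKM. The difference did not pass over all genes (log2 0.44, SE 0.14, limma, BH-adjusted p = 0.191), and it stayed between 0.36 and 0.51 over 16 alternatives. Some of these alternatives, here and below, cannot change a log2 difference. Cyp1a1, which liver makes mainly after exposure to an inducer, was at 0.433, 0.226 and 0.384 FPKM in flox and 0.698, 0.781 and 0.559 in HKO. These values rest on 20, 9 and 18 reads and on 32, 41 and 24 reads, and the groups did not overlap. Cyp1a1 was under the minimum level for the test, and in the fit with no minimum its adjusted p was 0.38 by limma with BH adjustment. Cyp1b1, another AHR-responsive gene of the family, expressed mostly outside hepatocytes, was near 0, with 7, 6 and 4 reads in flox and 16, 13 and 7 in HKO. Relative to Cyp2e1, also a pericentral gene, Cyp1a2 stood at a ratio of 0.105, 0.105 and 0.1399 in flox and 0.195, 0.2497 and 0.183 in HKO, with no overlap, a pair chosen after its values were seen.

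Cyp2c was the subfamily with the most expressed genes, and its differences lay on both sides of 0. Of 12 tested Cyp2c genes, 8 were higher and 4 lower in HKO livers, 0 passed by limma with BH adjustment, and the median log2 difference was 0.22. Without flox 2 the median was 0.36, and without flox 3 it was 0.12. Cyp2c29, an epoxygenase of arachidonic acid that responds to CAR, was the most abundant, at 659, 467 and 457 FPKM in flox 1 to 3 and 779, 875 and 583 in HKO 1 to 3. HKO 3 lay below flox 1, so the groups overlapped, and the difference did not pass (log2 0.50, SE 0.22, limma, BH-adjusted p = 0.305).

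Cyp2c54 was the higher Cyp2c gene with the closest HKO libraries. It was at 118, 152 and 118 FPKM in flox 1 to 3 and 214, 221 and 212 in HKO 1 to 3 (gene 404195, chromosome 19, 40037940 to 40073845, minus strand, GRCm38.p6), which gave means of 129 ± 19.9 in flox and 216 ± 4.87 in HKO (SD, n = 3) FPKM. The HKO libraries differed by a factor of 1.04 between highest and lowest, and all lay above the flox libraries. The difference did not pass over all genes (log2 0.74, SE 0.15, limma, BH-adjusted p = 0.0824) and lay between 0.68 and 0.87 over 16 alternatives. Its close relatives Cyp2c50 and Cyp2c37, which flank it within the cluster and were chosen after their values were seen, had smaller differences. Cyp2c50 was at 262, 283 and 195 FPKM in flox and 277, 308 and 326 in HKO (log2 0.31, and 0.15 without flox 3). Cyp2c37 was at 88.7, 134 and 136 and 122, 115 and 108 (log2 -0.03, but 0.05 with TPM and with scaling to the sum of the reads, and from -0.23 without flox 1 to 0.08 without flox 3). The ratio of Cyp2c54 to Cyp2c50 was 0.451, 0.538 and 0.602 in flox and 0.771, 0.718 and 0.649 in HKO, and that to Cyp2c37 was 1.33, 1.14 and 0.866 and 1.75, 1.92 and 1.96. Neither ratio overlapped between groups, and the smallest p that an exact permutation test of 3 against 3 can give is 0.1. Of the 100-base stretches of the Cyp2c54 transcript, 7.59% also occur in another gene.

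Cyp2c38 and Cyp2c55 were low and higher in HKO livers. Cyp2c38 was at 6.02, 5.92 and 10.1 FPKM in flox 1 to 3 and 13.2, 11.5 and 11.1 in HKO 1 to 3. All HKO libraries lay above flox, with flox 3 the nearest to them, and the difference did not pass (log2 0.67, SE 0.20, limma, BH-adjusted p = 0.171). Cyp2c55, a fatty acid hydroxylase known to respond to CAR and PXR, was at 5.12, 1.39 and 3.45 FPKM in flox and 6.28, 7.69 and 3.87 in HKO. The groups overlapped, with flox 1 above HKO 3, and flox 2 was the lowest library (log2 0.75, SE 0.37, limma, BH-adjusted p = 0.357). Without flox 2 the log2 difference of Cyp2c55 was 0.37.

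Cyp2c40 and Cyp2c69, whose promoters are nearly identical, were the tested Cyp2c genes with the largest lower differences, and both peaked in 1 control library. Cyp2c40 was at 22.2, 78.5 and 34.8 FPKM in flox 1 to 3 and 26.5, 17.3 and 21.7 in HKO 1 to 3. Cyp2c69, chosen after its values were seen, was at 7.35, 34.1 and 18.97 and 11.6, 8.38 and 10.1. Both were highest in flox 2, next highest in flox 3 and then in HKO 1, and for both flox 1 lay inside the HKO range or below it. The log2 difference of Cyp2c40 was -0.84 (SE 0.43, limma, BH-adjusted p = 0.37) and that of Cyp2c69 -0.72 (SE 0.48, limma, BH-adjusted p = 0.478). Without flox 2 they were -0.36 and -0.24, and without flox 1 they were -1.24 and -1.28. Reads of the pair are hard to tell apart, since 44.1% of the 100-base stretches of Cyp2c40 and 36.3% of those of Cyp2c69 occur in another gene, 26.8% and 29.5% in each other. The authors' handling of pairs that match in several places was not given in the sources used here. Between libraries, the ratio of Cyp2c40 to Cyp2c69 lay between 1.83 and 3.02 in all libraries.

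**Figure D3:**
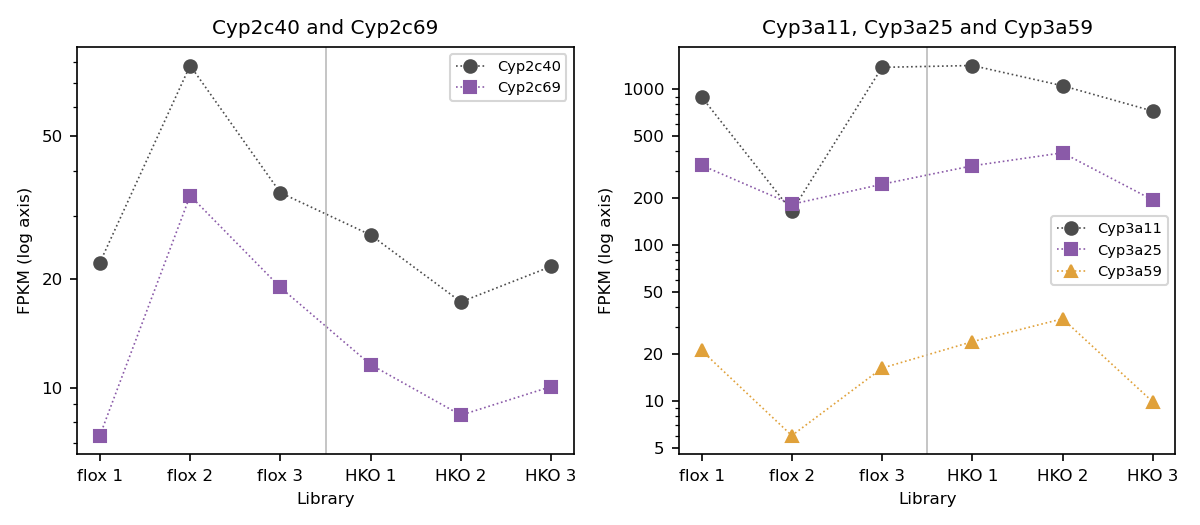
FPKM on a log axis in each of 6 liver libraries of Cyp2c40 and Cyp2c69 (left) and of Cyp3a11, Cyp3a25 and Cyp3a59 (right); dotted lines join the libraries of a gene for the eye and show no order. The Cyp2c pair peaks in flox 2, at 78.5 and 34.1, the library where Cyp3a11, at 165, and Cyp3a59, at 6.01, are lowest.

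The remaining tested Cyp2c genes had smaller differences, which moved with single libraries. Cyp2c44, an epoxygenase that lies apart from the cluster, had a log2 difference of 0.27, and Cyp2c70, which makes the 6-hydroxylated muricholic acids of mouse bile, had 0.17. Cyp2c44 was at 0.17 without HKO 1. Cyp2c70 was at 0.38 without flox 2, at 0.26 without HKO 2, at 0.10 without HKO 3 and at 0.0042 without flox 3. Cyp2c67 and Cyp2c68, at 154 and 133 FPKM in flox and 137 and 142 in HKO, had -0.13 and 0.11, and both directions turned when 1 library was left out. Cyp2c67 was at 0.07 without flox 2 and -0.36 without flox 1, and Cyp2c68 at -0.02 without flox 1, 0.27 without flox 2 and 0.04 without HKO 1. Adjusted p-values of these 4 were 0.418 to 0.788 by limma with BH adjustment. Along the chromosome, Cyp2c37, at log2 -0.03, is followed by Cyp2c54 at 0.74 and Cyp2c50 at 0.31, while Cyp2c40 at -0.84 and Cyp2c69 at -0.72 stand next to each other.

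**Figure D4:**
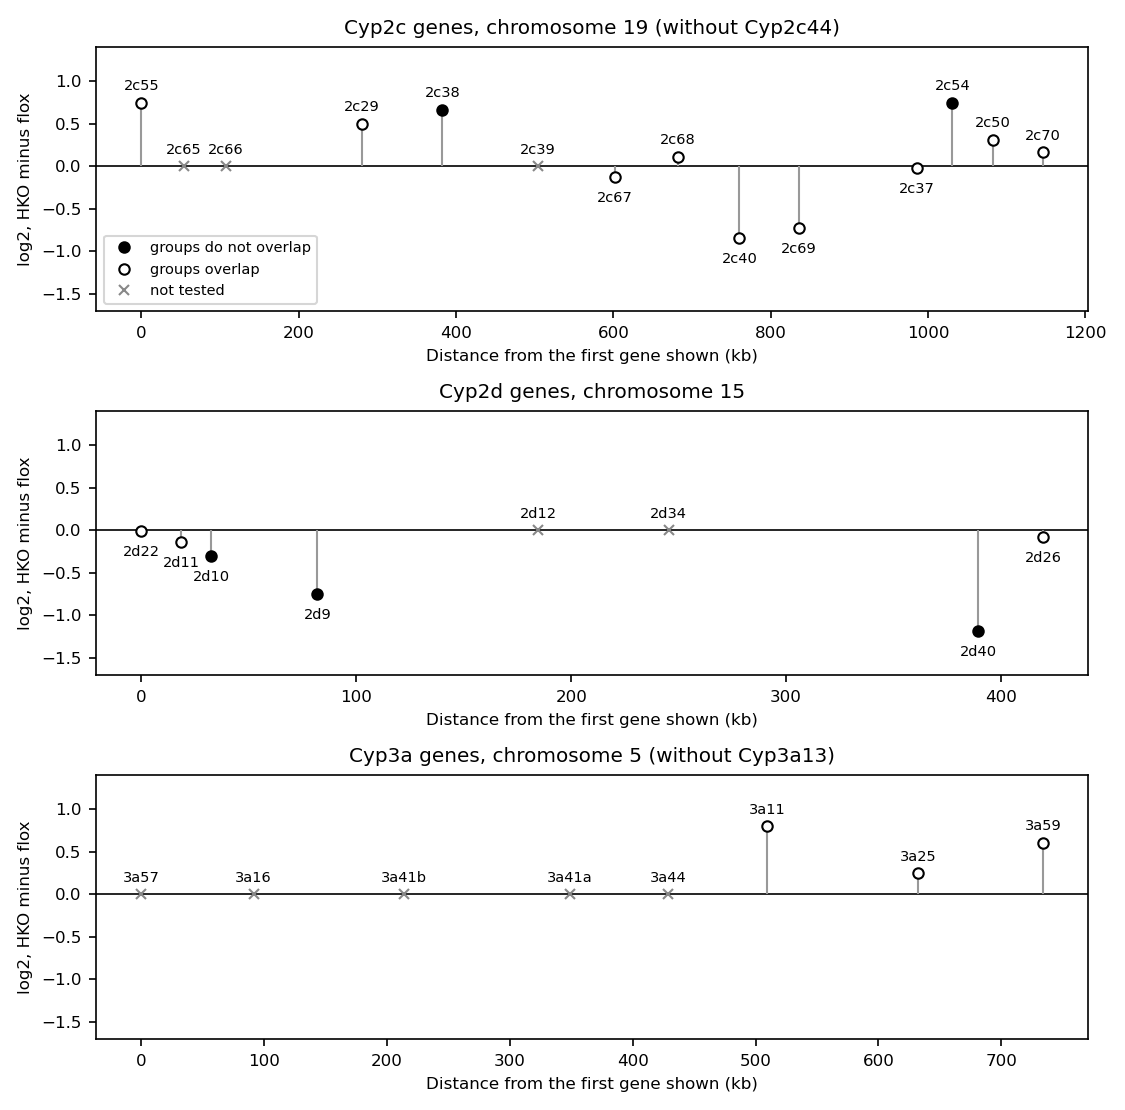
Difference in log2(FPKM + 1), HKO minus flox, of the Cyp2c, Cyp2d and Cyp3a genes against their distance in kb along the chromosome from the first gene shown; filled points do not overlap between groups and crosses were not tested. The Cyp2d points lie at or below 0, down to -1.18 for Cyp2d40, and the 3 Cyp3a points shown lie above 0, whereas the Cyp2c points run from -0.84 to 0.75.

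All 6 tested Cyp2d genes had lower values in HKO livers, and 3 of them (50%, beside 12.6% of all genes with HKO below flox) were separated between the groups. The median log2 difference was -0.22, and 0 of the 6 passed by limma with BH adjustment. Cyp2d22 was lower by only 0.01 and was higher by 0.07 with TPM and with scaling to the sum of the reads, so the count of 6 becomes 5 under those scalings. Without HKO 1 the median was -0.34, and 1 of the 6 was then higher, as it was without flox 1, flox 2, flox 3 or HKO 2.

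Cyp2d40 had the largest lower difference of any tested member. It was at 85.99, 118 and 80.9 FPKM in flox 1 to 3 and 50.05, 32.1 and 42.2 in HKO 1 to 3 (gene 71754, chromosome 15, 82759833 to 82764122, minus strand, GRCm38.p6). The highest HKO library lay well below the lowest flox library, and the means were 94.9 ± 20.02 in flox and 41.4 ± 9.01 in HKO (SD, n = 3) FPKM. The difference did not pass over all genes (log2 -1.18, SE 0.22, limma, BH-adjusted p = 0.0725), and over 16 alternatives it lay between -1.32 and -1.01 with adjusted p-values from 0.0522 to 0.219. Its neighbour Cyp2d26, chosen after its values were seen, was at 436, 505 and 429 FPKM in flox and 412, 456 and 428 in HKO (log2 -0.08, and -0.0042 without flox 2). The ratio of Cyp2d40 to Cyp2d26 was 0.197, 0.233 and 0.189 in flox and 0.122, 0.0703 and 0.0985 in HKO, without overlap.

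Cyp2d9, a testosterone 16-alpha-hydroxylase that is higher in male than in female mouse liver, was the second most abundant member. It was at 1429, 1514 and 1027 FPKM in flox 1 to 3 and 718, 689.9 and 948 in HKO 1 to 3 (gene 13105, chromosome 15, 82452377 to 82456827, plus strand, GRCm38.p6). HKO 3 came close to flox 3 but did not reach it. The log2 difference lay between -0.92 and -0.64 over 16 alternatives and did not pass (-0.75, SE 0.21, limma, BH-adjusted p = 0.149). Cyp2d10, which shares much of its promoter with Cyp2d9 and was chosen after its values were seen, was at 569, 632 and 629 FPKM in flox and 551, 429.6 and 510.2 in HKO (log2 -0.30, and -0.20 without HKO 2, SE 0.15, limma, BH-adjusted p = 0.357). The ratio of Cyp2d9 to Cyp2d10 was 2.51, 2.39 and 1.63 in flox and 1.303, 1.61 and 1.86 in HKO, which overlapped. Of the 100-base stretches of the Cyp2d9 and Cyp2d10 transcripts, 9.86% and 14.8% occur in another gene.

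The Cyp3a genes, which oxidise many steroids and drugs and respond to PXR, were uneven between animals. Cyp3a11 was at 896, 165 and 1385 FPKM in flox 1 to 3 and 1423, 1055 and 726 in HKO 1 to 3 (gene 13112, chromosome 5, 145854607 to 145879854, minus strand, GRCm38.p6). Flox 2 was 8.37 times below flox 3, whereas the HKO libraries spanned a factor of 1.96. All 4 tested Cyp3a genes were higher in HKO, with a median log2 difference of 0.48, and 0 passed by limma with BH adjustment. Cyp3a11 itself had a log2 difference of 0.80 (SE 0.75, limma, BH-adjusted p = 0.615). Without flox 2 the difference of Cyp3a11 was -0.11, 3 of the 4 were higher and the median was 0.08. The median was 0.74 without flox 1 and 0.79 without HKO 3, and Cyp3a11 was at 1.41 without flox 3. Cyp3a25 was at 326, 183 and 246 and 323, 392 and 195 FPKM, and Cyp3a59 at 21.1, 6.01 and 16.3 and 24.1, 33.8 and 9.88. Both were lowest in flox 2 and highest in HKO 2, and their ratio ran from 11.6 to 30.5. Cyp3a13 was at 62.7 ± 17.9 FPKM in flox and 79.8 ± 22.9 in HKO (SD, n = 3). These 3 were named after their values were seen. Adjusted p-values of these 3 were 0.548 to 0.704 by limma with BH adjustment.

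The Cyp3a genes that female mouse liver is known to make stayed near 0. Cyp3a44 had 3, 0 and 1 reads in flox 1 to 3 and 15, 22 and 4 in HKO 1 to 3. The groups did not overlap, at 0.0899, 0 and 0.0295 and 0.453, 0.5798 and 0.129 FPKM, and in the fit with no minimum its adjusted p was 0.348 by limma with BH adjustment. Cyp3a41a had no reads, and Cyp3a41b had 1 read in HKO 2. Cyp3a16, known from fetal liver, had 1 and 9 reads in HKO 1 and HKO 2 and none elsewhere, and Cyp3a57 had 1 read in HKO 3. Cyp3a41a and Cyp3a41b share 90.8% and 88.2% of their 100-base stretches with other genes, so reads of these genes could have been assigned elsewhere or left out. These genes were named after their values were seen.

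Among the subfamilies with a single expressed gene, Cyp2g1 stood out by its fold. This gene, best known from the olfactory mucosa, was at 0.803, 1.67 and 1.78 FPKM in flox 1 to 3 and 3.94, 6.004 and 4.17 in HKO 1 to 3 (gene 13108, chromosome 7, 26808927 to 26821197, plus strand, GRCm38.p6). These are 24, 43 and 54 reads against 117, 204 and 116, and the groups did not overlap. It had the largest higher difference and the lowest adjusted p of the tested members in the fit reported here (log2 1.25, SE 0.22, limma, BH-adjusted p = 0.0667), which did not pass. The added 1 shrinks a gene at this level: the log2 difference was 1.71 with 0.1 added and 0.59 with 5 added. Cyp2g1, Cyp2f2, Cyp2s1 and Cyp2t4 lie close together on chromosome 7.

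Cyp2f2, which oxidises naphthalene and marks periportal hepatocytes, was at 590.1, 774 and 644 FPKM in flox 1 to 3 and 540.3, 517 and 690.0 in HKO 1 to 3. The groups overlapped, with HKO 3 above flox 1 and flox 3 (log2 -0.20, SE 0.18, limma, BH-adjusted p = 0.589). The log2 difference of Cyp2f2 was -0.09 without flox 2, -0.12 without HKO 2 and -0.33 without HKO 3. Cyp2r1, a 25-hydroxylase of vitamin D, had 2.76, 2.92 and 2.25 and 3.33, 3.19 and 2.79 FPKM (log2 0.18, and 0.10 without flox 3, limma, BH-adjusted p = 0.53). Cyp2u1, a fatty acid hydroxylase, had 2.29, 3.21 and 4.302 and 2.997, 3.79 and 3.29 FPKM (log2 0.05, limma, BH-adjusted p = 0.905), and was at -0.12 without flox 1 and -0.02 without HKO 2. Both genes overlapped between the groups.

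The Cyp2j epoxygenases were led by Cyp2j5, at 109, 125 and 120.3 FPKM in flox 1 to 3 and 147, 146 and 141 in HKO 1 to 3. The groups did not overlap and each was tight, but the difference was small and did not pass (log2 0.29, SE 0.13, limma, BH-adjusted p = 0.306). Cyp2j6 and Cyp2j9 had log2 differences of 0.18 and -0.11, and both moved with single libraries. Cyp2j6 was at 0.07 without flox 3 and 0.29 without flox 2. Cyp2j9 was at 0.07 without flox 3 and 0.05 without HKO 1, and at -0.28 without HKO 2. The median of the 3 tested Cyp2j genes was 0.18, and it was 0.07 without flox 3 and 0.29 without flox 2. Cyp2j8 had 2, 4 and 6 reads in flox and 0, 1 and 0 in HKO. Cyp2s1, mostly an epithelial gene outside the liver, had 0, 1 and 2 reads in flox and 6, 28 and 12 in HKO, and Cyp2t4 had 9, 9 and 4 against 8, 12 and 2. These 3 were under the minimum level for the test. A count of 0 reads allows up to 3 reads, and such counts cover counting error only.

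The shares of 4 larger subfamilies in the members' summed FPKM did not overlap between the groups, although the sum itself did. No share was tested, and those of Cyp2e, Cyp2f and Cyp3a overlapped. Cyp2c genes made up 15.3, 17.4 and 16.03% of the members' summed FPKM in flox 1 to 3 and 21.5, 22.8 and 20.6% in HKO 1 to 3. Cyp2d genes made up 21.9, 23.8 and 21.9% and 16.8, 16.8 and 19.9%. In every HKO library Cyp2c exceeded Cyp2d, and in every flox library the reverse held. The Cyp1a share was 4.33, 4.54 and 4.698% in flox and 6.197, 7.69 and 6.401% in HKO, and the Cyp2j share 1.03, 1.15 and 1.297% and 1.48, 1.59 and 1.51%. The Cyp2c, Cyp1a and Cyp2j shares lay higher and the Cyp2d share lower in each HKO library. The Cyp3a share, 11.1, 3.45 and 16.3% and 17.3, 15.2 and 9.68%, overlapped, with flox 2 lowest of all. Shares of 1 sum move against each other, so a lower Cyp2e1 raises the rest. In FPKM itself the Cyp2d sum (2611, 2887 and 2270.2 and 1825, 1708 and 2043) did not overlap, whereas the Cyp2c sum (1820.0, 2114 and 1665 and 2332, 2320.5 and 2110.4) did, with flox 2 just above HKO 3. The Cyp1a sum (517, 552 and 488 and 673, 784 and 656) and the Cyp2j sum (122, 139 and 135 and 160, 162 and 155) did not overlap either. On average Cyp1a2 made up 99.9% of the Cyp1a sum in both groups. Cyp2j5 made up 89.4% of the Cyp2j sum in flox and 90.8% in HKO. These sums and shares thus largely repeat single genes, and shares of other gene sets were not computed. With 3 libraries against 3, an exact permutation test of a single sum or share cannot go below 0.1.

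**Figure D5:**
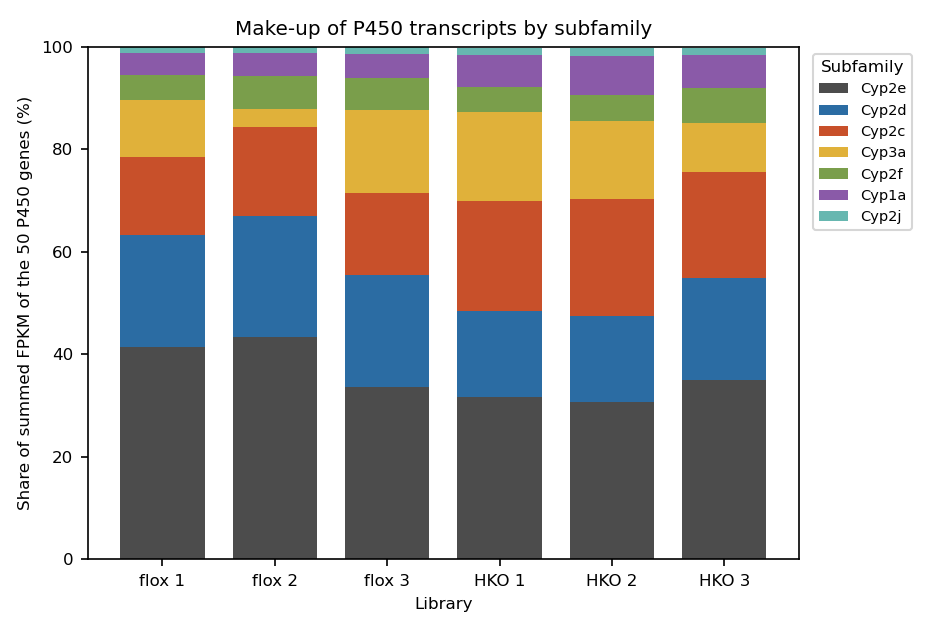
Stacked bars of the share (%) of each subfamily in the summed FPKM of the 50 P450 genes, for 3 flox and 3 HKO livers; subfamilies under 0.1% are not drawn. Cyp2c holds 15.3% to 17.4% in flox and 20.6% to 22.8% in HKO, and Cyp2d 21.9% to 23.8% and 16.8% to 19.9%.

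Flox libraries spread more than HKO libraries for the median member, a difference that was not tested. The ratio of the highest to the lowest library within a group had a median over the tested members of 1.51 in flox and 1.26 in HKO. Flox 2 was the highest of the 6 libraries for 13 of the 31 tested members and the lowest for 5, among them Cyp3a11, Cyp3a25, Cyp3a59 and Cyp2c55. Flox 1 was the lowest for 9, flox 3 for 8, HKO 2 for 7, HKO 1 for 2 and HKO 3 for 0. Neither these counts nor the spread was taken over all genes, so whether they are particular to the P450 genes was not tested. The part of flox 2 in the differences was not tested beyond leaving it out.

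Of the genes that serve or control P450s, 38 were listed and 34 tested, and 0 passed by limma with BH adjustment. Of these 13 were higher and 21 lower, and their log2 differences had a median of -0.19. At an unadjusted p under 0.05, 2 (5.88%) were higher and 7 (20.6%) lower, beside 8.57% and 8.44% of all genes, and voom called 0 as well. Por, which feeds electrons to every member, was at 418, 406 and 142 FPKM in flox 1 to 3 and 229.9, 127 and 196 in HKO 1 to 3. The groups overlapped because flox 3 lay among the HKO libraries (log2 -0.69, SE 0.45, limma, BH-adjusted p = 0.471). The electron carrier Cyb5a, by contrast, was at 812, 770.3 and 727 and 878, 1013 and 935 FPKM and did not overlap (log2 0.29, limma, BH-adjusted p = 0.335). Cyb5b and the heme-binding Pgrmc1 were also separated upward, with log2 differences of 0.37 and 0.48 (limma, BH-adjusted p = 0.256 and 0.227). Cyb5a, Cyb5b and Pgrmc1 were named after their values were seen.

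None of the receptors and factors that are known to control P450 genes passed. Ahr was at 11.9, 11.9 and 6.300 FPKM in flox and 10.4, 9.18 and 11.2 in HKO, which overlapped (log2 0.07, limma, BH-adjusted p = 0.896). Nr1i2, which encodes PXR, was at 50.7, 57.3 and 31.9 and 27.3, 23.9 and 31.6 FPKM, with every HKO library below every flox library (log2 -0.70, limma, BH-adjusted p = 0.198). Nr1i3, which encodes CAR, was at 110.4, 110.4 and 69.3 and 54.2, 68.7 and 74.7 FPKM and overlapped (log2 -0.53, limma, BH-adjusted p = 0.292). The liver factor Hnf4a was at 165, 164 and 151 FPKM in flox and 83.2, 116 and 134 in HKO. It was separated downward without passing (log2 -0.55, limma, BH-adjusted p = 0.216). Hnf4a was named after its values were seen.

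Targets of the same receptors outside the P450 genes were read from lists. Of 6 AHR targets 4 were tested, all 4 were higher and 1, Gsta1, passed, where 0.488% of all genes did. Gsta1, a glutathione transferase, was at 0, 0 and 0.638 FPKM in flox and 20.02, 8.23 and 8.75 in HKO without overlap. Its log2 difference was 3.39 (limma, BH-adjusted p = 0.0297), and voom called 0 of the 4. With a flox mean of 0.21 FPKM, Gsta1 reached the minimum level only through HKO, so its direction was favoured in advance. Tiparp overlapped (log2 0.26, limma, BH-adjusted p = 0.579), as did the untested Ahrr and Aldh3a1, both near 0. Nqo1 was at 4.07, 2.09 and 1.69 and 8.73, 4.11 and 4.25 FPKM without overlap, and Ugt1a6a at 8.73, 7.28 and 8.28 and 12.4, 6.52 and 9.63 with overlap. Of 12 CAR and PXR targets 10 were tested, with 6 higher, 4 lower and 0 passing by limma with BH adjustment (at an unadjusted p under 0.05, 3 higher and 0 lower, beside 8.57% and 8.44% of all genes, and 0 called by voom). Aldh1a1 was the most abundant of them, at 379, 286 and 262 FPKM in flox and 677, 573 and 505 in HKO. It did not overlap (log2 0.93, limma, BH-adjusted p = 0.0854). Alas1 came next, at 424, 289 and 265.5 FPKM in flox and 287, 79.05 and 228 in HKO. Alas1 was lower with overlap (log2 -0.88, limma, BH-adjusted p = 0.392), as was Por, next in level, at log2 -0.69. Alas1 and Por are also counted among the genes that serve or control P450s, and Aldh1a1 among the pericentral genes below.

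Zonation genes were listed because Cyp1a2 and Cyp2e1 are pericentral and Cyp2f2 is periportal. Of 14 pericentral genes outside the P450s, 5 were higher and 9 lower, and the median of their log2 differences was -0.08. Of 13 periportal genes, 10 were higher and 3 lower, with a median of 0.23. None of these passed by limma with BH adjustment, and at an unadjusted p under 0.05, 2 pericentral (14.3%) and 5 periportal genes (38.5%) were higher and 0 lower, beside 8.57% and 8.44% of all genes, and voom called 0 and 0. Cyp1a2, at log2 0.44, and Cyp2e1, at -0.41, differed in opposite directions.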

How the data were processed

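Polyadenylated RNA from 6 mouse livers was selected with poly-T beads and sequenced from both ends on an Illumina NovaSeq, per the labels' protocols. Per the series text, the authors aligned the pairs to GRCm38.p6 with HISAT2 2.0.5 and counted them per gene with featureCounts 1.5.0-p3. CASAVA and DESeq2 1.20.0 are also named in the submitters' processing notes. Strandedness and the handling of pairs that match in several places were not given in the sources used here, which leaves the reads of near-identical paralogs uncertain. Deposited values were FPKM, made by the authors from those counts, the gene length and a library size. In every library 100% of the products of FPKM and gene length were whole multiples of 1 step (tolerance 0.001), from which the reads were recovered. Library size was 0.925 to 1.08 times their sum.

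Genes with a mean of at least 1 FPKM were tested with limma 3.58.1 in R 4.3.3 (trend and robust, statmod 1.5.0) on log2(FPKM + 1), HKO minus flox, with Benjamini-Hochberg (BH) adjustment over all 10453 at 0.05. The added 1 understates the fold change of low genes. Because the reads of 1 gene limit its precision, members under that minimum are given as reads. The fit was tested on simulated data. Alternatives covered the added constant, the minimum, the scaling (median-of-ratios, TPM, sum of the reads), the test (eBayes without trend and robust, voom on the recovered reads), the replicate number as a block and each library left out. Promoters are RefSeq's on GRCm38.p6, aligned with Biopython 1.88, and 100-base stretches were compared over GENCODE transcripts of GRCm38 for 49 members. Figures were drawn with Python 3.11.15, pandas 2.3.3 and matplotlib 3.10.9.

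Named members are those past the threshold or at an unadjusted p under 0.05, the most abundant of each subfamily, and the 3 largest differences in each direction; other genes are Alkbh5, Por, Ahr, Nr1i2, Nr1i3 and up to 3 of each list by mean FPKM. All others were named after their values were seen. Members and lists were chosen with earlier results of these data known. Libraries of 1 group differed by more than sampling noise, so none was counted as a copy.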

Additional observations from a re-analysis of the deposited data

How the results depend on the processing

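With 3 livers a group, 0 P450 members and 0 partner or regulator genes passed in any of the 16 alternatives, and the lowest adjusted p of a member was 0.0522 (Cyp2d40, voom, limma). Of the 31 tested members 23 kept their direction in all of them and 8 changed it in at least 1. A gene's log2 difference cannot change with the minimum level, the eBayes options or the replicate block. With median-of-ratios scaling it did not change either. Kept directions and ranges therefore rest on the added constant, TPM, the sum of the reads, voom and the libraries left out. Cyp3a11, at log2 0.80, ranged from -0.11 (without flox 2) to 1.41 when libraries were left out in turn, and Cyp2u1, at 0.05, from -0.12 to 0.22, with -0.02 without HKO 2. The background counts moved more: 28 higher and 23 lower genes became 18 higher with 0.1 added, 0 and 1 with no minimum level, and 0 to 29 higher and 1 to 41 lower when libraries were left out in turn (41 without flox 3, and at most 1 higher and 2 lower without flox 1, flox 2, HKO 1 or HKO 2); the cause was not tested. With the replicate block 1 gene was called higher and 8 lower. The numbers are not known to pair the animals: same-numbered libraries correlated at 0.153, -0.145 and -0.0514 in their deviations, and for numbers 2 and 3 a library lay closer to another number. Median-of-ratios scaling gave the same counts as the deposited scaling, and TPM and the sum of the reads moved the median of all genes from -0.02 to 0.06 and 0.05. Members under 1 FPKM rest on at most 41 reads in a library, and among tested members Cyp2c40, Cyp2c69, Cyp2c67, Cyp2c68, Cyp2d10 and Cyp2d11 share over 10% of their stretches with other genes.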

Other observations

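Genes that differ between the livers of male and female mice were listed beside the members, because Cyp2d9 is male-biased and Cyp3a41a and Cyp3a44 are female-biased. Of 17 such genes outside the members 12 were tested, 4 were higher and 8 lower in HKO livers, and 0 passed by limma with BH adjustment, and at an unadjusted p under 0.05, 2 (16.7%) were higher and 3 (25%) lower, beside 8.57% and 8.44% of all genes, while voom called 0. The most abundant were the serpin Serpina1e, at 9639, 11890.0 and 6390.0 FPKM in flox 1 to 3 and 4869, 4936 and 7124 in HKO 1 to 3, and the urinary proteins Mup7, at 2509, 1592 and 1067 and 107, 611 and 1648, and Mup20, at 177, 147 and 113 and 112, 106 and 95.5. Mup20 was separated downward, as Cyp2d9 was, and Serpina1e and Mup7 overlapped. Xist stayed near 0 in every library.

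Marker lists of other cells were summed in each library. Kupffer cell markers summed to 87.95 to 138.3 FPKM in flox and 94.01 to 169 in HKO, sinusoidal endothelial markers to 16.44 to 21.75 and 17.55 to 19.92, stellate cell markers to 22.06 to 44.07 and 42.2 to 56.23, B cell markers to 1.418 to 2.686 and 1.046 to 2.604, and neutrophil markers to 0.6287 to 8.15 and 2.476 to 3.254. These overlapped between the groups. Cholangiocyte markers did not, at 26.24 to 36.38 and 20.65 to 23.3 FPKM, a sum made up mostly of Spp1, and Krt19, Krt7 and Epcam overlapped. Summed markers of intestine, kidney tubule and pancreatic acini overlapped, with the intestinal Cdx2 and Alpi at 0 in every library. Of 2 tested intestinal markers 1 was separated downward, as 12.6% of all genes were, and passed, as 0.488% of all genes did. This was Lgals4, at 29.6, 27.5 and 29.6 FPKM in flox and 9.64, 10.4 and 15.2 in HKO. Its log2 difference was -1.25 (limma, BH-adjusted p = 0.0441). The other, Fabp2, overlapped (log2 0.05, limma, BH-adjusted p = 0.916). The part of any of these cells in the P450 differences was not tested.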
